A study of Mus musculus with 12 samples.

Results

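Ddit4l, Ddit4 and the sestrin genes Sesn1, Sesn2 and Sesn3 encode the stress-inducible inhibitors of mTORC1 described here. They are 5 of the 55385 genes in the deposited count tables, found by matching each gene identifier to its symbol. The members were chosen by the higher Ddit4l counts of the Keap1 KO libraries against the controls, so the Ddit4l difference between genotypes is given as a description without a test. The other 4 members were read from tests fitted across all genes.

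RNA was measured in 12 libraries, 1 per animal, of satellite cells (muscle stem cells) taken from hindlimb muscle of C57BL/6J mice and frozen at once in liquid nitrogen. There were 3 animals in each of 4 groups, female and male, labelled either Keap1 KO or with the control label "Hetz" ("heterogeneous"), which is read here as heterozygous and written Het. The Het label is carried by every control, and wild-type animals were not analysed here. Ages, the Keap1 allele and any Cre driver are not given in the sources used here.

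mTORC1 is the nutrient-sensing kinase complex that drives protein synthesis and cell growth, and in satellite cells its activity is known to rise when they leave quiescence. DDIT4 (REDD1) and DDIT4L (REDD2) restrain it through the TSC complex, which switches off the GTPase RHEB. Sestrins restrain it by binding GATOR2, which controls the Rag GTPases at the lysosome, and by acting with AMPK, and SESN2 is known as a leucine sensor. KEAP1 is the adaptor that marks the transcription factor NRF2 for degradation, and NRF2 acts through the antioxidant response element.

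The members lie on 4 chromosomes of GRCm38. Ddit4l (ENSMUSG00000046818) spans chr3:137621612-137628333 on the plus strand with 2916 exonic bases. Ddit4 (ENSMUSG00000020108) spans chr10:59949669-59951834 on the minus strand with 1755 exonic bases. Sesn1 (ENSMUSG00000038332) spans chr10:41809935-41908424 on the plus strand with 3982 exonic bases, Sesn2 (ENSMUSG00000028893) spans chr4:132492032-132510501 on the minus strand with 3475, and Sesn3 (ENSMUSG00000032009) spans chr9:14275067-14333101 on the plus strand with 15269. No exonic base of any member was shared with another gene model, and reads mapping to several places, as between paralogs, were not counted.

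The 250 bases upstream of each RefSeq start (GRCm38.p6, 6 windows for the 5 members) were searched on both strands for 4 motifs, because the genotypes differ in the regulator of NRF2. The core of the antioxidant response element, TGACNNNGC where N is any base, was found in the windows of Ddit4l and Sesn2 and in none of those of Ddit4, Sesn1 and Sesn3. It occurred in 10.161% of 32851 promoter windows of the same length. The Ddit4l window is shown whole because that gene had the largest difference of the 5 between genotypes, with the core in capitals at bases -46 to -38. It is chr3:137623422-137623671 on the plus strand and lies between exons of the gene model used for counting. The Sesn2 match at bases -36 to -28 is shown with 10 flanking bases on each side, chr4:132510474-132510502 on the minus strand, and lies in an exon of that model. For contrast, Ddit4 is shown at its match to the core of the hypoxia response element, ACGTG, in capitals at bases -187 to -183, chr10:59951943-59951967 on the minus strand. That core occurred in 16.572% of windows and in no other member.
Ddit4l: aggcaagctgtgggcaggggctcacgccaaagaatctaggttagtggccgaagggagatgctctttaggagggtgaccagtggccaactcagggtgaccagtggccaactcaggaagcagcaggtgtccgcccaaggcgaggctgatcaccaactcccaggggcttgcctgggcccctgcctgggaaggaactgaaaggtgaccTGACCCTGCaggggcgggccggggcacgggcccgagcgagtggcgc
Sesn2: cgcagcgggcTGACAGAGCcgggcgagcg
Ddit4: aacgttgcgaACGTGcgcccggtgc
The ATF4-CEBP element TGATGNAAN and the FoxO element TGTTTAC were in none of the 6 windows, and they occurred in 3.437% and 3.166% of all windows. A match is a description of the sequence, since no binding was measured.

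Total counts ran from 13042039 to 19273245 per library, and levels are given as CPM (counts relative to the library total) scaled by TMM factors over all 12 libraries. Keap1, the targeted gene, was at 9.49, 7.1 and 7.93 CPM in female Het, 11.8, 12.8 and 11 in female KO, 10.04, 5.34 and 8 in male Het, and 6.38, 7.85 and 7.64 in male KO. Its log2 difference was 0.54 in females (edgeR adjusted p = 0.186) and -0.09 in males (adjusted p = 0.936). Counts over all exons therefore do not check the genotype labels, and KO below means the libraries labelled KO. Of 10 NRF2 targets, 8 passed the test as higher in female KO and 3 in male KO. The number of female calls rose most when the animal Hetz165 was left out (animals are called as in the labels): 319 genes passed with it and 1479 without it. By chi-square per degree of freedom, higher where libraries are less alike, Hetz165 was at 37.59 from Hetz164 and 65.22 from Hetz181. Hetz164 and Hetz181 were at 32.37, so by this measure Hetz165 was the least alike of the female Het libraries. Whether it is an outlier, and why it differed, was not tested. Females and males are in separate count tables, so sex and any difference in preparation between the tables cannot be told apart. In bulk RNA, fewer cells of a type and less RNA per cell cannot be told apart either.

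Ddit4l, the muscle-enriched REDD paralog, was higher in KO in both sexes. In females it was at 38.8, 29.7 and 34.7 CPM in Het (34.4 ± 4.59, SD, n = 3) and at 131.5, 137.8 and 119.9 CPM in KO (129.7 ± 9.06). In males it was at 22.8, 16.35 and 14.1 CPM in Het (17.75 ± 4.48) and at 62.2, 78.1 and 51.1 CPM in KO (63.8 ± 13.6). Every KO library lay above every Het library of the same sex, which held for 12.1% of all genes in females and 9.39% in males. The male KO libraries also lay above all female Het libraries. The ratio was 3.77 in females, a log2 difference of 1.91, and 3.61 in males, a log2 difference of 1.85. In order of log2 difference from the highest, Ddit4l stood 73rd among 14036 genes in females and 30th among 13361 in males. These values chose the gene and are not tested. Leaving out any 1 animal gave log2 differences of 1.82 to 2.01 in females and 1.69 to 2.06 in males.

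**Figure D1:**
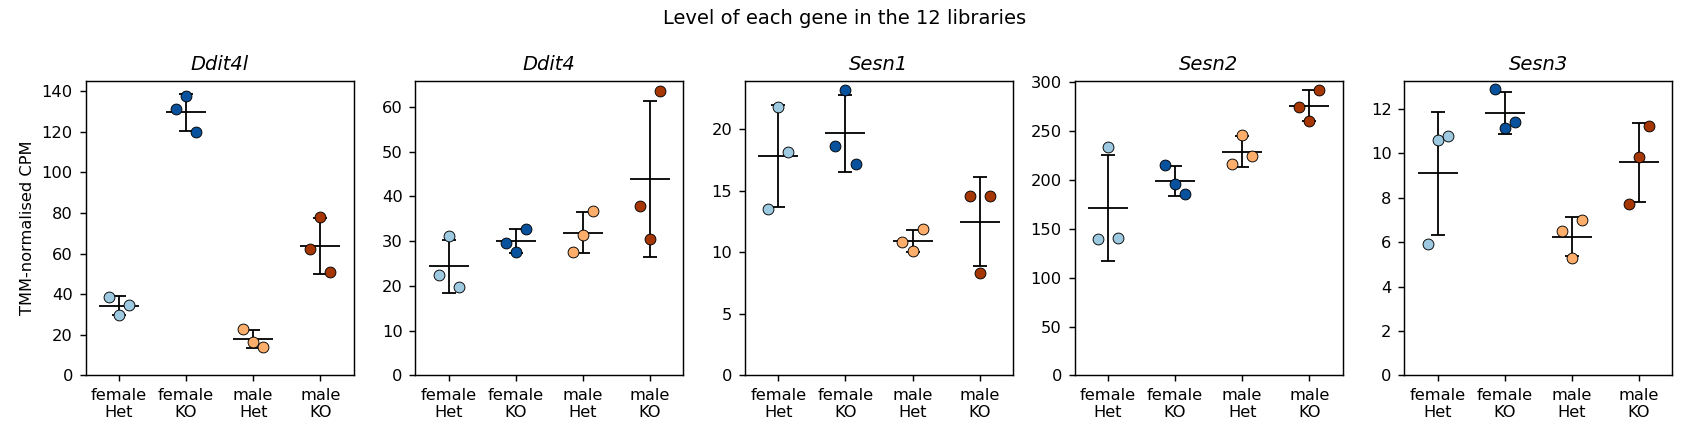
TMM-normalised CPM (y axis, linear, from 0, a separate scale in each panel) of the 5 genes in the 12 libraries by group, with each point 1 animal, the long bar the mean and the whiskers 1 SD over 3 animals. Ddit4l in KO sits between 119.9 and 137.8 CPM in females and between 51.1 and 78.1 CPM in males, while the other 4 genes differ less between genotypes.

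Ddit4l was also higher in females than in males, as a description. The female libraries lay above the male libraries within each genotype, 1.95 times higher in Het and 2.03 times higher in KO. Females above males without overlap held for 13.7% of all genes in Het and 19.4% in KO. Sex and count table cannot be told apart here. The change with genotype was nearly the same size in both sexes on the log2 scale, and the female change minus the male change was 0.065. Its sign was negative without Hetz165, Hetz204 or KO255.

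Ddit4, the glucocorticoid-, hypoxia- and stress-induced paralog, did not pass the test in either sex. In females it was at 22.3, 31.1 and 19.7 CPM in Het (24.4 ± 5.95) and 29.6, 27.6 and 32.8 CPM in KO (30 ± 2.59), with overlapping groups. In males it was at 27.7, 31.4 and 36.7 CPM in Het (31.9 ± 4.55) and 37.8, 30.4 and 63.5 CPM in KO (43.9 ± 17.4). The male groups overlapped too, and KO255 held the highest KO value. The log2 difference was 0.295 in females (SE 0.19, 95% interval -0.11 to 0.70, edgeR adjusted p = 0.433) and 0.465 in males (SE 0.24, -0.07 to 0.996, adjusted p = 0.483). Without KO255 the male difference was 0.09, and with each animal left out the female difference ran from 0.15 to 0.52.

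Per base of exon, the balance within the DDIT4 pair shifted between genotypes. Ddit4l made up 36.5 to 51.5% of the pair's CPM per kilobase in the female Het libraries and 68.8 to 75% in female KO. In males its share was 18.8 to 33.1% in Het and 32.6 to 60.7% in KO. The shares did not overlap in females and overlapped narrowly in males, where the KO library of KO255 had the highest Ddit4. Because Ddit4l was chosen for its level, these shares are descriptions.

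Sesn2, the amino acid-responsive sestrin and a known target of NRF2 and ATF4, was the highest member in every group. In females it was at 139.8, 233.4 and 140.5 CPM in Het (171.3 ± 53.8) and 215, 195.5 and 185 CPM in KO (198.5 ± 15.25). The female groups overlapped because Hetz165 lay above every KO animal. In males it was at 215.8, 246 and 224.7 CPM in Het (228.9 ± 15.5) and 274.3, 260.4 and 292.2 CPM in KO (275.6 ± 15.9), with every KO animal above every Het animal. The log2 difference was 0.21 in females (SE 0.195, 95% interval -0.22 to 0.63, edgeR adjusted p = 0.618) and 0.27 in males (SE 0.12, 0.01 to 0.53, adjusted p = 0.379). Neither passed. Without Hetz165 the female difference was 0.505 and passed (adjusted p = 0.0278), and the average over the sexes was 0.38 and passed (adjusted p = 0.0126), against 0.24 (adjusted p = 0.317) with all animals.

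Sesn3, the FoxO-responsive sestrin, was the lowest member. In females it was at 5.92, 10.6 and 10.8 CPM in Het (9.10 ± 2.75) and 12.9, 11.1 and 11.4 CPM in KO (11.8 ± 0.95). In males it was at 6.48, 5.28 and 6.98 CPM in Het (6.25 ± 0.87) and 7.72, 9.81 and 11.2 CPM in KO (9.59 ± 1.76). Every KO animal lay above every Het animal of its sex, by a narrow margin in both. The log2 difference was 0.37 in females (SE 0.24, 95% interval -0.15 to 0.89, edgeR adjusted p = 0.443) and 0.62 in males (SE 0.225, 0.135 to 1.11, adjusted p = 0.274). The average over the sexes was 0.50 (SE 0.165, 0.15 to 0.845), with an unadjusted p of 0.00763 and an edgeR adjusted p of 0.117, which did not pass. With each animal left out the female difference ran from 0.14 to 0.50 and the male one from 0.49 to 0.74.

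Sesn1, the p53-responsive sestrin, did not pass the test in either sex. In females it was at 13.5, 21.8 and 18.2 CPM in Het (17.8 ± 4.13) and 18.6, 23.2 and 17.2 CPM in KO (19.7 ± 3.14). In males it was at 10.8, 10.1 and 11.9 CPM in Het (10.95 ± 0.91) and 14.6, 8.30 and 14.5 CPM in KO (12.5 ± 3.62), where KO247 was the lowest of all 12. The groups overlapped in both sexes. The log2 difference was 0.13 in females (SE 0.20, 95% interval -0.31 to 0.58, edgeR adjusted p = 0.77) and 0.195 in males (SE 0.23, -0.30 to 0.69, adjusted p = 0.802). Without Hetz164 the female sign turned (-0.03), and with each animal left out the male difference ran from 0.05 to 0.42.

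Of the 4 members other than Ddit4l, 0 of 4 passed in females, where 1.29% of all genes tested passed in the higher direction, and 0 of 4 in males, where 0.704% did. At an unadjusted p under 0.05 edgeR had 0 of 4 in females and 2 of 4 in males, Sesn2 and Sesn3, against 17.9% and 12.4% of all genes in either direction. DESeq2 and limma voom called 0 of the 4 in each sex. All 4 log2 differences were above 0 in both sexes, with a median of 0.25 in females and 0.37 in males, beside medians over all genes of 0.00 and 0.01. Libraries did not overlap, with KO higher, for 1 of the 4 in females and 2 of the 4 in males, beside 12.1% and 9.39% of all genes. The average over the sexes also called 0 of 4, where 2.15% of genes passed as higher, and its edgeR adjusted p for Ddit4 was 0.238 at an unadjusted p of 0.0313.

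**Figure D2:**
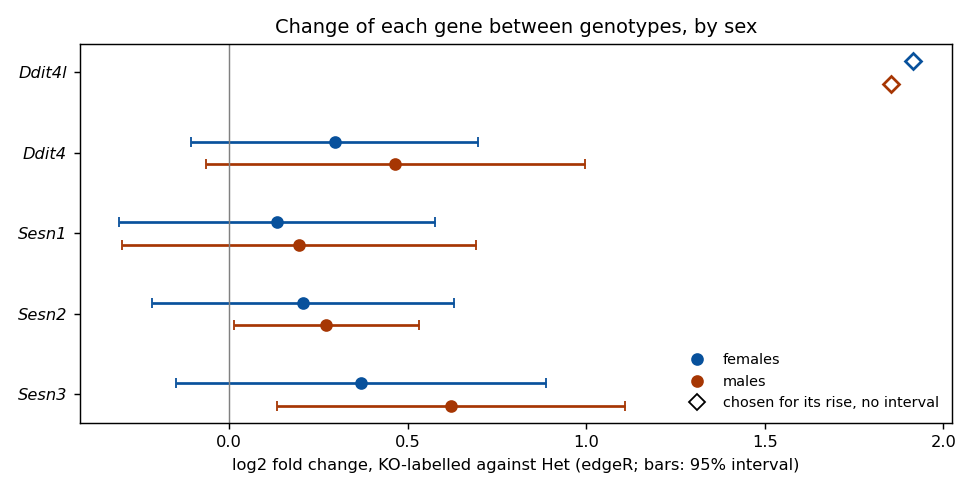
Log2 fold change of KO against Het (x axis) for each gene (rows) in females and males, as points with 95% intervals from edgeR; Ddit4l is an open diamond without an interval because it was chosen for its rise. Ddit4l sits at 1.91 and 1.85, and the intervals of Ddit4 and Sesn1 cross 0 in both sexes.

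The difference between the female and the male change was small for the tested members relative to its error. It was -0.16 for Ddit4 (95% interval -0.84 to 0.52, edgeR adjusted p = 0.885), -0.05 for Sesn1 (-0.71 to 0.61, adjusted p = 0.969), -0.055 for Sesn2 (-0.55 to 0.44, adjusted p = 0.957) and -0.245 for Sesn3 (-0.94 to 0.45, adjusted p = 0.814). In that comparison 0.00677% of all genes passed. These intervals are wide enough to hold sex differences of the size of the changes themselves.

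Between the sexes, Sesn1 was lower in male than in female KO libraries, by 1.57 times (log2 difference -0.65, SE 0.22, edgeR adjusted p = 0.0463), where 9.31% of all genes passed as lower. Males lay below females without overlap for Sesn1 in both genotypes, which held for 13.7% of all genes in Het and 19.4% in KO. The call was lost without any 1 of 9 of the 12 animals, with adjusted p from 0.0509 to 0.183. In Het the Sesn1 difference was of like size, -0.70, and its adjusted p was 0.0535. Sesn2 went the other way, with males higher by a log2 difference of 0.42 in Het (adjusted p = 0.126) and 0.47 in KO (adjusted p = 0.0546), neither of which passed. Ddit4 was 0.39 and 0.55 higher in males (adjusted p = 0.307 and 0.0993), and Sesn3 was at -0.54 and -0.30 (adjusted p = 0.157 and 0.388). Leaving out 1 animal brought calls in for Sesn2 in Het (0.705 without Hetz165, adjusted p = 0.00296), for Sesn3 in Het (-0.79 without Hetz164, adjusted p = 0.0399) and for Ddit4 in KO (0.755 without KO247, adjusted p = 0.0281). It did so too for Sesn1 in Het without Hetz164, KO247 or KO255 (adjusted p = 0.0326, 0.0244 and 0.0443) and for Sesn2 in KO without Hetz164, Hetz165 or Hetz181 (adjusted p = 0.0498, 0.00681 and 0.0402). In Het, 0 of 4 passed, where 10.2% of all genes passed in either direction, and in KO 1 of 4, where 20.4% did.

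Per kilobase of exon, the order of the members differed between groups only in where Ddit4l stood. In female Het the order was Sesn2 at 49.3 ± 15.5 CPM per kilobase, Ddit4 at 13.9 ± 3.39, Ddit4l at 11.8 ± 1.57, Sesn1 at 4.48 ± 1.04 and Sesn3 at 0.60 ± 0.18. In female KO Ddit4l, at 44.5 ± 3.11, stood above Ddit4, at 17.1 ± 1.48, and below Sesn2, at 57.1 ± 4.39. In male Het Ddit4l was at 6.09 ± 1.54 and Ddit4 at 18.2 ± 2.59, and in male KO they were at 21.9 ± 4.66 and 25 ± 9.895. Ddit4 and Ddit4l overlapped in female Het and in male KO, and no other neighbours in the order did in any group. Across all 12 libraries the mean level of Sesn2 was above that of 97.5% of the 31671 genes with a count, Ddit4l above 93.2%, Ddit4 above 92.5%, Sesn1 above 79.75% and Sesn3 above 62.5%.

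Among the sestrins, Sesn2 made up 90.5% of the CPM per kilobase in female Het, 90.9% in female KO, 95.4% in male Het and 95.5% in male KO, as means of 3 libraries. Its share was between 88.5 and 91.8% in every female library and between 94.9 and 96.5% in every male library. Sesn1 held 6.94 to 9.995% in females and 2.69 to 4.41% in males, and Sesn3 no more than 1.55% in any library.

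**Figure D3:**
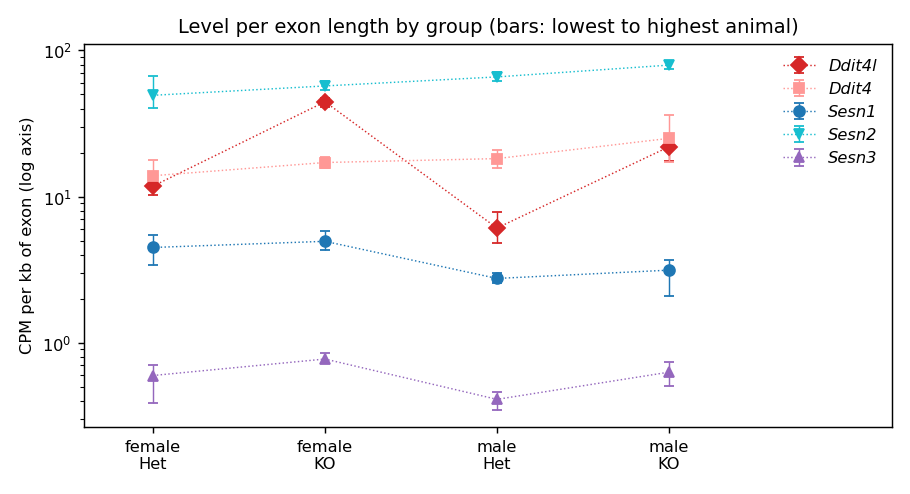
Mean CPM per kilobase of exon (y axis, log scale) of the 5 genes in the 4 groups, with bars from the lowest to the highest of 3 animals and dotted lines only joining the points of a gene. Sesn2 is at the top and Sesn3 at the bottom of every group, while Ddit4l moves from 11.8 to 44.5 in females and from 6.09 to 21.9 in males.

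Few genes of the machinery on which these inhibitors act passed the test. In females 0 of 80 tested genes of the mTOR pathway passed (mTOR complex subunits, TSC and Rheb, the GATOR-Rag-Ragulator branch, the insulin-PI3K-AKT and LKB1-AMPK branches, and mTORC1 substrates), beside 2.27% of all genes. At an unadjusted p under 0.05 edgeR had 13, 7 higher and 6 lower, beside 17.9% of all genes. DESeq2 and limma voom called 0, and the median log2 difference was 0.09. In males 2 of 80 rose and 0 fell, beside 0.861% of all genes in either direction. There were 11 at an unadjusted p under 0.05, beside 12.4% of all genes, and the median was 0.05. Without the filter on low counts 3 passed in males, 2 higher and 1 lower (Telo2, an assembly factor of mTOR, -0.71, adjusted p = 0.0443). With the filter, both male calls were lost, with 0 of 80 left, without any 1 male Het animal or without KO240. Without Hetz165, 9 passed in females, 5 higher and 4 lower.

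The genes that rose in males belong to the amino acid branch and to the substrates. Rraga, the Rag GTPase that tethers mTORC1 to the lysosome, was at 64.6, 82.05 and 79.7 CPM in male Het and 112.2, 144.7 and 127.6 in male KO (1.7-fold, log2 difference 0.765, SE 0.14, edgeR adjusted p = 0.0259). Pdcd4, a translation inhibitor degraded after phosphorylation by S6 kinase, was at 27.9, 29.2 and 28.8 CPM in male Het and 43.65, 46.7 and 43.7 in male KO (1.56-fold, 0.645, SE 0.13, adjusted p = 0.0383). The Pdcd4 call was also lost in the joint fit of 12 libraries (adjusted p = 0.274). The male groups did not overlap for either gene, with KO higher, which held for 9.39% of all genes tested in males. In females Rraga was at 75.4 to 91.1 CPM in Het and 74.8 to 93.4 in KO, and Pdcd4 at 32.7 to 77.5 and 35.7 to 46.4.

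Where the inhibitors dock, the nearest to the threshold did not pass. In females Tsc2, the GTPase-activating subunit through which REDD proteins act, had a log2 difference of 0.53 (edgeR adjusted p = 0.232) and its target Rheb one of -0.39 (adjusted p = 0.305). Rptor, the subunit that defines mTORC1, was at 0.50 (adjusted p = 0.225), and Rragd and Mios of the Rag and GATOR2 branch were at -0.47 and -0.35 (adjusted p = 0.178 and 0.27). In males the same genes were at 0.01 for Tsc2, 0.23 for Rheb, -0.09 for Rptor, 0.22 for Rragd and -0.01 for Mios (adjusted p from 0.576 to 0.992). Those genes were the nearest in females. The nearest in males of the same 3 lists were Telo2 at -0.70 (adjusted p = 0.218), Tbc1d7 at 0.95 (0.319) and Fnip1 at 0.33 (0.336). Tbc1d7 was low, at 0.96 to 2.26 CPM in the male libraries. Tfe3, a lysosomal transcription factor that mTORC1 keeps out of the nucleus, was at 0.48 in females (adjusted p = 0.135) and 0.47 in males (adjusted p = 0.148). Without Hetz165, Tsc2 (0.87, adjusted p = 0.00669), Rptor (0.75, 0.0255) and Tfe3 (0.64, 0.0115) passed as higher, and Rheb (-0.58, 0.0259) and the S6 kinase gene Rps6kb1 (-0.58, 0.024) as lower. The other 4 were Castor2 and Pik3r2, higher, and Lamtor5 and Seh1l, lower.

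**Figure D4:**
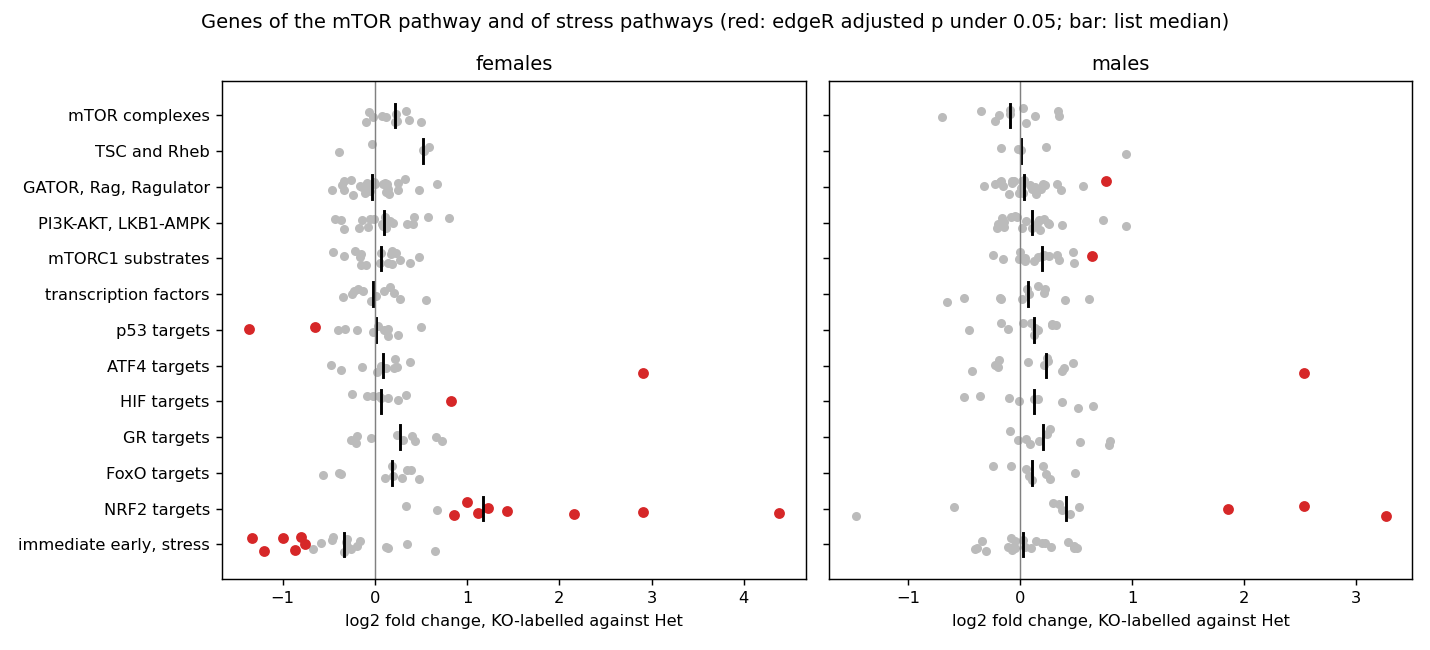
Log2 fold change of KO against Het (x axis) for each tested gene of 13 lists (rows) in females and males, with genes that passed in red and the list median as a bar. In the 5 mTOR pathway lists at the top, 0 of 80 genes passed in females and 2 of 80 in males.

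The transcription factors known to drive these genes, and their other targets, were read beside the members. Of 12 such factors, 0 passed in edgeR in either sex, and limma voom called 0. In edgeR 2 had an unadjusted p under 0.05 in females and 3 in males, beside 17.9% and 12.4% of all genes. DESeq2 called 1 in females and 0 in males. Atf4, the integrated stress response factor known to induce Sesn2 and Ddit4, was at 361.5 to 452.1 CPM in the female Het group and 540.7 to 646.5 CPM in female KO (log2 difference 0.56, adjusted p = 0.0736), and its male log2 difference was 0.08 (adjusted p = 0.887). Foxo3 was at 0.61 in males (adjusted p = 0.168) and -0.25 in females (adjusted p = 0.498), and Hif1a at 0.40 (adjusted p = 0.225) and -0.185 (adjusted p = 0.5).

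Calls among the targets of those factors stand beside 2.27% of all genes in females and 0.861% in males, in either direction. At an unadjusted p under 0.05 in edgeR the shares of all genes were 17.9% and 12.4%. Of 12 ATF4 targets, 1 rose in each sex, the cystine transporter Slc7a11, which is also in the NRF2 list (7.47-fold in females, edgeR adjusted p = 0.000106, and 5.8-fold in males, adjusted p = 0.0261). The male Slc7a11 call was lost without Hetz204 or KO240 (adjusted p = 0.0627 and 0.0965). Of 12 p53 targets, 2 fell in females, Cdkn1a (the cell cycle inhibitor p21) by 1.57 times and Pmaip1 (the apoptosis gene Noxa) by 2.58 times, with adjusted p of 0.0469 and 0.0466, and 0 of 12 passed in males (0 at an unadjusted p under 0.05, and 0 by DESeq2 and limma voom). The Cdkn1a call was lost without any 1 KO animal or without Hetz181, and in the joint fit of 12 libraries (adjusted p = 0.053), and the Pmaip1 call without Hetz165 or KO166 or KO188, with adjusted p up to 0.202 and 0.192. Of 9 hypoxia targets, the glucose transporter Slc2a1 rose 1.78-fold in females (adjusted p = 0.00565, and 0.0555 without KO188), and 0 of 9 passed in males, where Slc2a1 was at a log2 difference of 0.51 (adjusted p = 0.105), 3 had an unadjusted p under 0.05, DESeq2 called 1 and limma voom 0.

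Glucocorticoid receptor and FoxO targets, 2 further lists tied to Ddit4 and Sesn3, had 0 calls by edgeR in both sexes. For the receptor, 2 of 10 had an unadjusted p under 0.05 in each sex, DESeq2 called 0 in females and 1 in males and limma voom 0, with list medians of 0.27 and 0.20. The smallest male p was that of the receptor's co-chaperone gene Fkbp5, at a log2 difference of 0.80 (adjusted p = 0.192). For FoxO, 5 of 10 in females (3 higher, 2 lower) and 1 of 9 in males (higher) had an unadjusted p under 0.05. DESeq2 and limma voom called 0, and the medians were 0.19 and 0.11. Beside the unadjusted counts of both lists, 17.9% of all genes in females and 12.4% in males had such a p.

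NRF2 targets had more calls than any other pathway list, in both sexes. In females 8 of 10 rose, with a median log2 difference of 1.17, and in males 3 of 10, with a median of 0.40. Of all genes, 1.29% in females and 0.704% in males passed as higher. In males 2 of the 10 had a negative log2 difference without passing, Hmox1 (heme oxygenase, -1.47) and Gclm (a glutathione synthesis subunit, -0.59), both with an adjusted p of 0.576. The summed level of the 10 was 1712 to 2617 CPM in Het and 4123 to 5492 in KO in females, and 2510 to 4985 and 2641 to 4412 in males, where the groups overlapped. The quinone reductase Nqo1 was 20.8-fold higher in females (edgeR adjusted p = 2.58e-07) and 9.63-fold in males (adjusted p = 1.15e-05), and the NADPH-producing malic enzyme Me1 was 4.46- and 3.63-fold higher (adjusted p = 1.49e-05 and 0.000697). The ratios of the 10 ran from 1.26 (Hmox1) to 20.8 in females and from 0.361 (Hmox1) to 9.63 in males. The Ddit4l ratios of 3.77 and 3.61 lie inside both ranges, but they chose that gene, and a link to NRF2 was not tested.

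Genes whose levels followed the members across the 12 libraries were found by Pearson correlation of log2(CPM + 1) among 9096 genes with a mean of at least 5 CPM. The 5 most like Ddit4l were Slc7a11 and the catalase gene Cat (r = 0.975 each), Me1 (0.974), the esterase gene Esd (0.968) and the aldo-keto reductase gene Akr1c14 (0.964). Each was highest in female KO and lowest in male Het, and all libraries share the same 4 groups. Because Ddit4l was chosen for its rise in KO, genes that rise in KO stand high in this order by construction. The order is a description, and shared regulation was not tested. For Ddit4 they were Spata13 (0.954) and Tns2 (0.941), for Sesn1 Ncaph (0.932) and Trp53inp1 (0.923), for Sesn2 Fbxo42 (0.944) and Fbxl12 (0.941), and for Sesn3 Tspan17 (0.945) and Pde7a (0.878). Trp53inp1, itself a p53-responsive gene, was at 50.8 and 60.4 CPM in female Het and KO and at 24.7 and 30.8 in male Het and KO, lower in males as Sesn1 was.

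**Figure D5:**
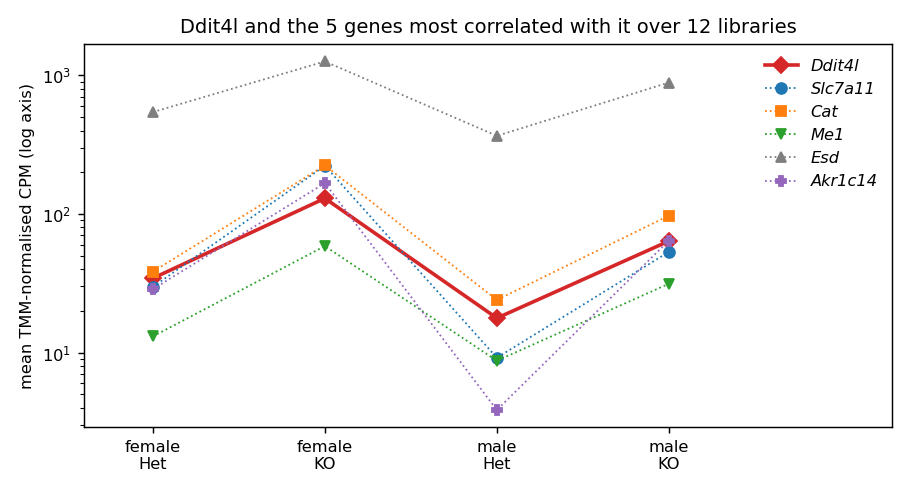
Mean TMM-normalised CPM (y axis, log scale) of Ddit4l and the 5 genes most correlated with it, in the 4 groups; lines only join the points of a gene. All 6 are highest in female KO and lowest in male Het, with Ddit4l at 129.7 and 17.75 CPM. Ddit4l was chosen for its rise in KO, so the likeness is a description.

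Markers of cell types and of tissue handling are given beside these results, and their part in them was not tested. The 8 satellite cell markers summed to 10600 to 12240 CPM in female Het and 7330 to 9256 in the female KO group, and to 14010 to 16230 and 15870 to 17190 in male Het and KO. Most of the female sum was 1 gene, Sdc4, with means of 7221 CPM in Het and 4849 in KO. In females 0 of the 8 passed in edgeR and 2 had a log2 difference above 0, with a list median of -0.28. At an unadjusted p under 0.05 edgeR had 3, all lower, beside 17.9% of all genes, and DESeq2 called 2 lower. Calcr was at -0.57 and Sdc4 at -0.58 (edgeR adjusted p = 0.0998 and 0.122). Pax7 was at -0.06 in females and -0.45 in males (edgeR adjusted p = 0.906 and 0.576). In males 0 of the 8 passed and 5 were above 0, with a list median of 0.025. Leukocyte markers summed to 91.7 to 131.1 CPM in female Het, to 39.5 to 60.45 CPM in KO of that sex, and to 30.1 to 101.1 and 60.1 to 75.7 in male Het and KO. In females 2 of 11 passed in edgeR, Cd74 and Lyz2, both lower, beside 2.27% of all genes in either direction. The median log2 difference of the 11 was -0.855, and 1 was above 0. At an unadjusted p under 0.05 edgeR had 6, all lower, beside 17.9% of all genes. DESeq2 called 3 lower and limma voom 2. The Lyz2 call was lost without Hetz164, KO178 or KO188 (edgeR adjusted p up to 0.164). The Cd74 call was lost in the joint fit of 12 libraries (adjusted p = 0.16). In males 0 of 6 tested passed, with a median of 0.03. Ddit4l is also known to be expressed in myofibres. Myofibre markers summed to 125.1 to 341.3 and 139.9 to 668.2 CPM in female Het and KO. They summed to 50.6 to 64.7 and 48.1 to 144 in male Het and KO, and the groups overlapped in both sexes. Their median log2 difference was 0.94 in females and 0.35 in males, beside medians over all genes of 0.00 and 0.01. Of 9 tested, 9 in females (Myh4 at 0.00) and 8 in males were above 0, and 0 passed in either sex. Fibro-adipogenic markers summed to 2457 to 4747 and 2791 to 3235 CPM in females and 981.4 to 2305 and 1176 to 1725 in males. Endothelial markers summed to 61.2 to 65.2 and 46.25 to 82.3 CPM in females and 183.5 to 198.1 and 114.7 to 293.5 in males. No marker gene of any list was at 0 in every library of a group. Of 21 genes induced by tissue dissociation, 6 fell in female KO, beside 2.27% of all genes in either direction. Among them was Btg2 (2-fold lower, edgeR adjusted p = 0.0019). In males 0 of the 21 passed, and DESeq2 and limma voom called 0. At an unadjusted p under 0.05 edgeR had 4 in males, beside 12.4% of all genes. Without KO178 or without KO188 the female calls of Ier2, Dusp1 and Dnajb1 were lost (adjusted p from 0.0515 to 0.113). Dusp1 was also lost without Hetz164 or KO166, and Dnajb1 without Hetz181 or KO166.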

How the data were processed

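RNA was measured with the Smart-Seq2 method and a Tn5 library kit, per the labels, in 12 libraries of 1 animal each. The authors deposited raw counts of fragments for each Ensembl gene; per the file headers they ran featureCounts 2.0.0 over the exons in release 99 of Ensembl GRCm38, ignoring strand and leaving out reads mapped to several places or genes. The submitters' processing notes name STAR, mm10 and DESeq2 as well. The tables held 0 columns of other samples, and 55144 of 55385 genes had a symbol (GENCODE M21), and 247 of the 249 symbols of the 22 lists were found.

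The members, lists and tests were chosen with earlier results of these data known. Differences came from the quasi-likelihood test of edgeR 4.0.16 in R 4.3.3 (TMM, robust, filterByExpr with a minimum count of 10), Benjamini-Hochberg adjusted over all genes tested, with a threshold of 0.05 and no fold threshold. All 5 members passed the filter. Each sex was fitted within its own table, and the average, the difference of changes and the sexes came from 1 fit of 12 libraries. Simulated counts with known changes were used to check the fit. Alternatives were DESeq2 1.42.0, limma 3.58.1 voom, RLE factors, no filter, a joint fit and leaving out each animal. P-values weigh a group difference against the spread between these animals, estimated with information shared across genes. Reads carry no molecular identifiers, so the floor of 3 counts (0.144 to 0.237 CPM) covers counting error only. Total counts of 13042039 to 19273245 set the depth. No 2 libraries of a group agreed within sampling noise (chi-square per degree of freedom at least 12.44).

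Named genes were the 5 members, per list and sex up to 4 passing genes and at most 2 others by smallest p, and the genes most correlated with each member. Genes of the mTOR lists that passed without Hetz165 are named too, which was decided after their values were seen. Promoter sequences are from RefSeq (GRCm38.p6), and protein sequences were not used here.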

Additional observations from a re-analysis of the deposited data

How the results depend on the processing

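The Ddit4l difference moved by less than the spread of the animals in all 11 alternatives within each sex (log2 1.82 to 2.01 in females, 1.69 to 2.06 in males). Ddit4l was chosen for its rise and its KO and Het libraries did not overlap. Its direction could therefore not turn when an animal was left out, and these values are a description. The count of genes called moved more than that difference. In females 319 became 723 with DESeq2, 1000 without a filter and 144 to 1479 with each animal left out, and in males 115 became 280, 375 and 41 to 294. The mTOR pathway calls became 1 in females without a filter and 0 to 9 with each animal left out, and in males 3 without a filter, 1 in the joint fit and 0 to 2 with each animal left out. These pathway alternatives, and those for the named genes of the lists, were chosen after seeing the data. With each animal left out, the female difference ran from -0.032 to 0.311 for Sesn1 and from 0.074 to 0.505 for Sesn2, and the female minus male change from -0.148 to 0.228 for Ddit4l, -0.374 to 0.204 for Ddit4, -0.281 to 0.117 for Sesn1 and -0.189 to 0.233 for Sesn2. The sign of the female minus male change turned without Hetz165 for Ddit4l (-0.03), Ddit4 (0.05), Sesn1 (0.12) and Sesn2 (0.23), without KO255 for Ddit4l (-0.07), Ddit4 (0.20) and Sesn1 (0.07), without Hetz204 for Ddit4l (-0.15), and for Sesn1 without KO188 (0.04), Hetz245 (0.002) or KO240 (0.07). Beside the calls that leaving out an animal brought in, Sesn1 in Het males against females passed with DESeq2 (adjusted p = 0.0228), RLE factors (0.0497) and no filter (0.0104), Sesn2 in KO with DESeq2 (0.0412) and no filter (0.0247), and Ddit4 in KO with no filter (0.0206). Except where the number of genes or animals differs by construction, the cause was not tested. No paired analysis was possible because each animal number belongs to 1 animal and the groups share none. With 3 animals a group, a result that did not pass leaves room for any difference inside the interval given. The intervals are not adjusted over all genes: those of Sesn2 and Sesn3 in males lay above 0 without passing. No smallest detectable difference was computed for the members.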

Other observations

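The genes next to each member on its chromosome, 2 on each side among those tested, were read in the same fits, and they were chosen by position after the members' values had been seen. None of the 20 passed in either sex by edgeR. Beside Ddit4l on chromosome 3, the calcineurin subunit gene Ppp3ca was at a log2 difference of -0.15 in females and -0.25 in males (edgeR adjusted p = 0.651 and 0.624), and the endothelial gene Emcn was at 0.47 and 0.04 (0.585 and 0.987). On the other side the histone gene H2afz was at -0.34 and -0.21 (adjusted p = 0.258 and 0.594) and the chaperone gene Dnajb14 at 0.28 and 0.14 (0.536 and 0.869). The nearest to the threshold was Phactr4, 69.5 kb from Sesn2, at 19.1 ± 1.97 CPM in female Het and 29.3 ± 1.43 in female KO (log2 difference 0.61, adjusted p = 0.0634).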
